A study of Mus musculus with 6 samples.

Results

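The 10 genes described here are widely read as general markers of cancer-associated fibroblasts (CAFs), the fibroblasts of a tumour, and were followed through 6 RNA-seq libraries. They were Fap, Thy1, Pdpn, S100a4, Vim, Des, Cav1, Nt5e, Spp1 and Eng. Taken by symbol, each matched 1 row of the count tables, and together they were 10 of 48368 symbols. Of the 10, 9 passed the filter on low counts and were tested among 17584 genes, and Fap did not pass it.

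The cells were primary CAFs grown in culture from mammary tumours of MMTV-PyMT mice, in which a mammary tumour virus promoter drives the polyomavirus middle T oncogene. Both groups carried this transgene. KO libraries came from Hic-5-/- tumours and HET libraries from Hic-5+/- tumours, so the HET cells also lacked 1 functional copy, and no wild-type group was analysed here. Hic-5, encoded by Tgfb1i1, is a LIM-domain adaptor of focal adhesions. There were 3 KO and 3 HET libraries. They are named technical triplicates in the series text, yet of the numbers in their titles only 1 occurs on a pair of libraries, KO replicate 3 and HET replicate 3. Which libraries share an animal or a culture is not stated, and the spread behind every p-value below is therefore that of these 6 libraries and may be technical. No age is stated for the mice.

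Several libraries went against their label or stood apart. Tgfb1i1, the targeted gene, stood at 90.4, 0.232 and 156 CPM (counts scaled to library size, with TMM factors) in KO replicates 1 to 3, against 223, 348 and 125 CPM in HET replicates 1 to 3. It was thus nearly absent only from the library labelled KO replicate 2, while the library labelled KO replicate 3 lay above HET replicate 3, and directions below compare labels. Gene totals do not tell transcript of a disrupted allele from intact transcript. KO replicate 2 also stood apart over all genes, at 154 on a first principal component holding 42.7% of the variance, with the other libraries between -79.2 and 18.2. The libraries held 24954273 to 42470598 estimated counts. At these depths 3 counts, the floor used here, correspond to 0.0682 to 0.119 TMM-scaled CPM, which covers counting error only.

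None of these genes is used by CAFs alone, and the markers combine several kinds of protein. Vim and Des form intermediate filaments, the flexible part of the cytoskeleton. Thy1, Pdpn, Fap, Nt5e and Eng sit at the cell surface, Cav1 coats its small invaginations called caveolae, S100a4 is a calcium-binding protein inside the cell, and Spp1 is secreted. Fibroblasts of a tumour are known to differ in which of these they carry, and most of the genes are also used by pericytes, endothelium, macrophages or muscle.

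Vim, S100a4, Spp1 and Cav1 were the markers present at 1 RPKM (reads scaled to library size and per kilobase of gene, as deposited) or more in every library. This was 4 of 10 markers, where 38.0% of all tested genes met the same condition. Thy1, Pdpn, Eng and Nt5e were at or above 1 RPKM in some libraries and under it in others. Des and Fap were under it in all 6. Without KO replicate 2, Thy1 and Pdpn also held, which made 6 of 10, where 39.2% of tested genes held. The deposited RPKM divide by the whole gene, introns included, so this cutoff is stricter for long genes. At 1 CPM or more in all 6 libraries, Pdpn and Eng held besides the first 4. That made 6 of 10, where 75.3% of tested genes held. In bulk RNA, fewer cells of a type and less RNA per cell cannot be told apart.

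**Figure D1:**
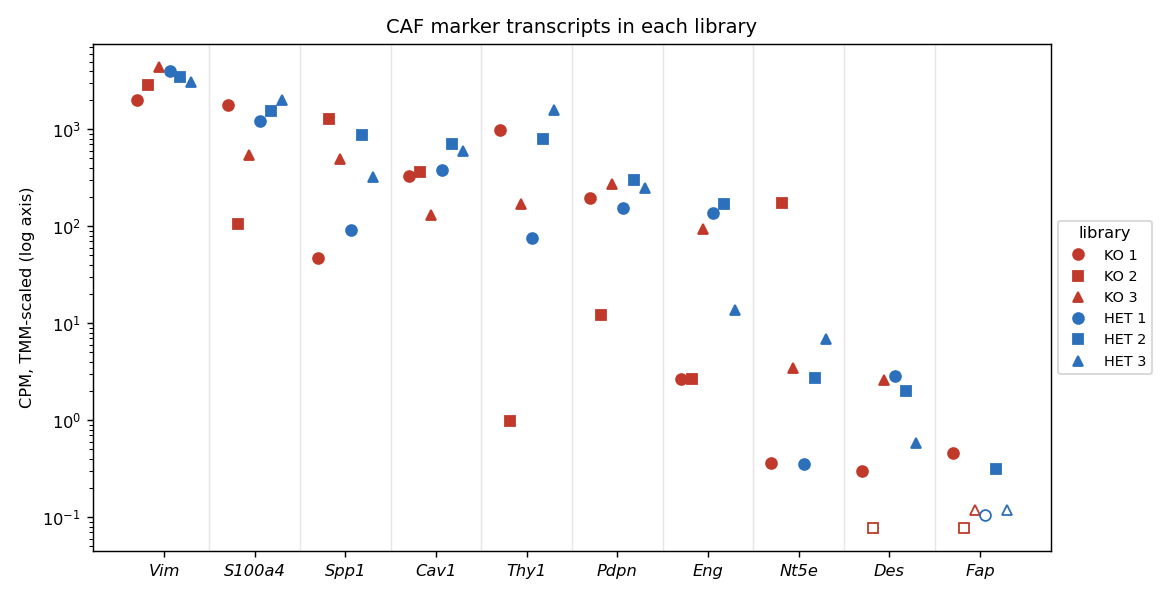
TMM-scaled CPM of the 10 markers on a log axis, with a point for each library (KO in red, HET in blue, the shape giving the replicate); open points lay at or under the floor of 3 counts and are drawn at it. Vim kept to 2019.7 to 4387 CPM, whereas Thy1 ran from 0.981 to 1573 CPM and Fap did not exceed 0.455 CPM.

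Across the 9 tested markers, 0 passed the adjusted threshold in edgeR, where 0.0% of all 17584 tested genes did, and 0 had an unadjusted p under 0.05, where 8.59% of them did (4.3% higher and 4.29% lower in KO). DESeq2 gave no p for Nt5e and called 0 of the other markers at its adjusted p, where it called 1.05% of genes (0.754% lower and 0.291% higher). At an unadjusted p under 0.05 DESeq2 gave 1 marker, Cav1, where 7.14% of genes passed (3.25% higher and 3.89% lower). In limma-voom 0 markers passed the adjusted threshold and 1, again Cav1, had an unadjusted p under 0.05, where 8.75% of genes did (3.67% higher and 5.07% lower). The log2 fold change was below 0 in 7 of the 9 and above it in Nt5e and Spp1, with a median of -0.93 beside 0.01 for all tested genes (0.15 with library size alone). Without KO replicate 2 the log2 fold changes were -0.49 for Thy1, -0.43 for S100a4, -0.37 for Des, -1.30 for Cav1, -1.19 for Eng and -0.15 for Vim, and Pdpn was at -0.0048, with none past the threshold. The intervals were wide, as the plot of log2 fold changes shows, so these values do not show that the markers were alike in both groups.

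**Figure D2:**
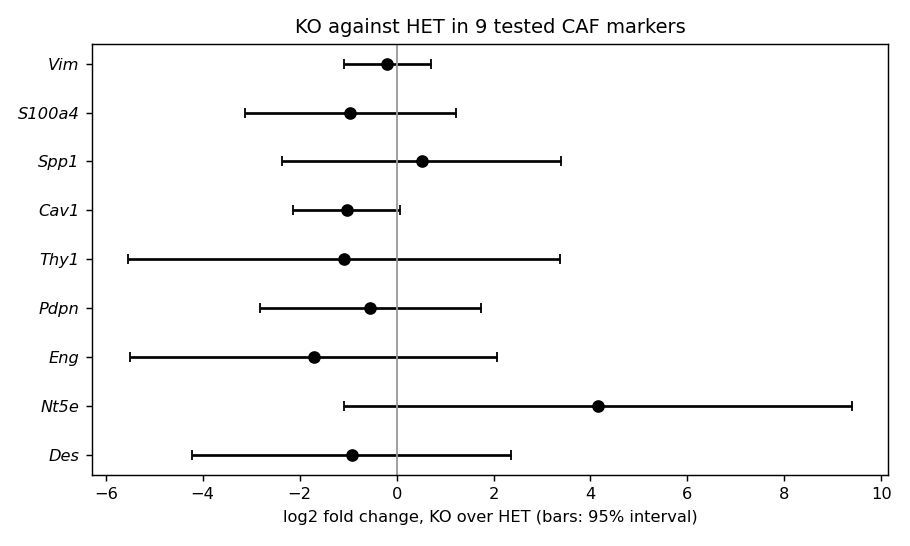
Log2 fold change of KO over HET from edgeR for the 9 tested markers, with bars for the 95% interval and a line at 0. Every interval includes 0, and the narrowest is that of Vim (-1.10 to 0.71).

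The intermediate filament genes gave the steadiest and one of the scarcest markers. Vim, vimentin, the main intermediate filament of mesenchymal cells, stood at 2019.7, 2869.7 and 4387 CPM in KO replicates 1 to 3, against 4027, 3457 and 3110.4 CPM in HET replicates 1 to 3. The groups overlapped, and both the lowest and the highest library were KO. Its highest library was 2.17-fold its lowest, while the median of this fold over all tested genes was 2.44. KO averaged 3092 ± 1199 CPM and HET 3531 ± 463 CPM (SD, n = 3 each), a log2 fold change of -0.19 ± 0.37 (SE) not past the threshold (adjusted p = 0.881, edgeR's quasi-likelihood test, Benjamini-Hochberg over all tested genes). The 95% interval of that log2 fold change ran from -1.10 to 0.71, so changes within that range remained compatible with these libraries. Without KO replicate 1 the log2 fold change was 0.03.

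Des, desmin, the filament of muscle and of many pericytes, is a relative of Vim with a far lower level, 0.00279 to 0.265 RPKM over the 6 libraries against 192 to 404 RPKM for Vim. It had estimated counts of 13, 1 and 65 in KO replicates 1 to 3, against 81, 70 and 15 in HET replicates 1 to 3. On the CPM scale this was 0.296, 0.0258 and 2.58 in KO and 2.87, 1.99 and 0.588 in HET. The groups overlapped, KO replicate 2 was under the floor, and the log2 fold change of -0.93 ± 1.36 (SE) missed the threshold (edgeR adjusted p = 0.837). Among other filament and linker genes, Lmna (nuclear lamin A/C) stood at 620.3, 447 and 622 CPM in KO and 519, 632 and 527 CPM in HET. Plec (plectin, which links filaments) stood at 589, 429.6 and 1105 CPM in KO and 743, 780.2 and 711 CPM in HET. Nes, nestin, reached 629 CPM in KO replicate 3 and stood between 39.4 and 85.8 CPM elsewhere. Of the epithelial keratin genes in the list, Krt8 and Krt18 were highest in KO replicate 2, at 13.7 and 37.9 CPM. Krt19 was lowest there, at 0.542 CPM, against 12.97 to 64.1 CPM in the other libraries. Of the 12 tested genes of this list, 0 passed the adjusted threshold in edgeR and 2, Krt8 and Krt18, were higher at an unadjusted p under 0.05, and the median log2 fold change was 0.03, beside 0.01 for all tested genes. At that p 4.3% of all tested genes were higher.

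S100a4, also called fibroblast-specific protein 1, is a calcium-binding protein that acts on non-muscle myosin. It stood at 1796, 106 and 540.3 CPM in KO replicates 1 to 3, against 1203, 1527 and 2001 CPM in HET replicates 1 to 3. The HET libraries lay close together, within 1.66-fold, and KO replicates 2 and 3 lay under all of them, while KO replicate 1 lay among them. Even in KO replicate 2 the gene was above 92.0% of the symbols detected there. KO averaged 814 ± 878 CPM and HET 1577 ± 401 CPM (SD, n = 3 each), a log2 fold change of -0.95 ± 0.90 (SE; edgeR adjusted p = 0.741). Other S100 genes, picked after their values were seen, differed in their range. S100a16 stood at 57.9, 6.97 and 200.3 CPM in KO and 63.4, 90.5 and 138 CPM in HET, and like S100a4 it was lowest in KO replicate 2. S100a6 stood at 3389.9, 2575 and 4589.6 CPM in KO and 1685, 3790.3 and 3392 CPM in HET. S100a11 stood at 645, 315 and 413 CPM in KO and 501, 532 and 371 CPM in HET. Of 14 tested genes of the S100 list, 0 passed the adjusted threshold in edgeR and 1, S100a7a, was higher at an unadjusted p under 0.05 (2.25, 5.04 and 19.2 CPM in KO and 0.354, 1.71 and 2.67 CPM in HET), and the median log2 fold change was -0.02. The share of all tested genes higher at that p was 4.3%. This list also counts Anxa2 and S100pbp, which are not themselves S100 genes.

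Thy1, a surface glycoprotein on a lipid anchor that binds integrins, had the widest range of the 10. It stood at 977, 0.981 and 169.7 CPM in KO replicates 1 to 3, against 75.7, 792 and 1573 CPM in HET replicates 1 to 3. High and low libraries were found in both groups, with KO replicate 1 and HET replicates 2 and 3 high, KO replicate 3 and HET replicate 1 lower, and KO replicate 2 lower by 77.2-fold than the lowest other library. The range over 6 libraries was 1603-fold, wider than in 99.9% of tested genes, and it was 20.8-fold without KO replicate 2. KO averaged 382 ± 521 CPM and HET 813 ± 749 CPM (SD, n = 3 each), a log2 fold change of -1.09 ± 1.84 (SE; edgeR adjusted p = 0.861). The 95% interval ran from -5.54 to 3.36.

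Thy1 shares its kind of lipid anchor with several surface genes of stroma, among which Ly6a and Ly6c1 had the smallest p. Ly6a, the stem cell antigen Sca-1, stood at 115, 24.1 and 22.7 CPM in KO replicates 1 to 3, against 1114, 610.1 and 851 CPM in HET replicates 1 to 3. Ly6c1, a member of the same family, stood at 9.28, 3.10 and 3.85 CPM in KO and at 318, 85.3 and 52.7 CPM in HET. In both genes every KO library lay under every HET library, unlike in Thy1. Reck, an anchored inhibitor of matrix proteases, was likewise apart, at 15.7, 8.91 and 15.7 CPM in KO and 21.04, 51.7 and 53.7 CPM in HET. The log2 fold changes of Ly6a, Ly6c1 and Reck were -3.99 ± 0.78, -4.81 ± 0.89 and -1.65 ± 0.44 (SE), and none passed in edgeR's test, with an adjusted p of 0.579 for each. DESeq2 placed Ly6a and Ly6c1 past its threshold, with adjusted p of 2.6e-05 and 1.2e-06, and it called 1.05% of all genes to which it gave an adjusted p. Of the 14 tested genes of this list, 0 passed the adjusted threshold in edgeR, 4 were lower and 0 higher at an unadjusted p under 0.05, and the median log2 fold change was -0.80. Of all tested genes 4.29% were lower and 4.3% higher at that p, and their median log2 fold change was 0.01. Every KO library lay under every HET library in 4 of the 14, where 7.42% of all tested genes did so.

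Pdpn, podoplanin, a surface glycoprotein that binds ezrin and moesin inside the cell and the receptor CLEC-2 on platelets, was even across libraries except for 1. It stood at 196, 12.1 and 274 CPM in KO replicates 1 to 3, against 155, 303 and 246 CPM in HET replicates 1 to 3. KO replicate 2 lay 12.8-fold under the lowest other library, and the other 5 were within 1.95-fold of each other. KO averaged 161 ± 134 CPM and HET 235 ± 74.5 CPM (SD, n = 3 each), a log2 fold change of -0.55 ± 0.94 (SE; edgeR adjusted p = 0.864). Ezr, which encodes ezrin, stood at 51.4, 277 and 16.9 CPM in KO and 17.5, 11.7 and 38.2 CPM in HET, and was highest in the library where Pdpn was lowest. Msn, moesin, stood at 1156, 1047 and 2035 CPM in KO and 1148, 1180.5 and 1061 CPM in HET. Of the 8 tested partners of Pdpn, 0 passed the adjusted threshold in edgeR and 0 had an unadjusted p under 0.05, and their median log2 fold change was 0.05.

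Fap, fibroblast activation protein, a surface protease that cuts after proline and is a common target in tumour stroma, was close to absent from all 6 libraries. Its estimated counts were 20, 3 and 1 in KO replicates 1 to 3, against 2, 11 and 0 in HET replicates 1 to 3. This corresponds to 0.455, 0.0775 and 0.0397 CPM in KO and to 0.0708, 0.313 and 0 CPM in HET, where the count of 0 allows up to 0.118 CPM. The libraries at or under the floor were KO replicates 2 and 3 and HET replicates 1 and 3, so no fold is given. The related peptidase Dpp4 was also scarce, at 0.0682, 0.0258 and 0 CPM in KO and 0, 0.398 and 0.275 CPM in HET. Peptidases of this family that act inside the cell were present. Prep stood at 152, 165 and 129 CPM in KO and 153, 96.8 and 99.2 CPM in HET, and Dpp8 at 110.4, 99.4 and 155 CPM in KO and 122, 184 and 147 CPM in HET. Dpp7 was less even, at 25.9, 0.387 and 12.1 CPM in KO and 18.4, 17.5 and 20.5 CPM in HET, with KO replicate 2 lowest. Of 6 tested genes of this family, 0 passed the adjusted threshold in edgeR and 0 had an unadjusted p under 0.05, and the median log2 fold change was -0.14.

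Nt5e, the surface enzyme CD73 that makes adenosine from AMP, was high in a single library. It stood at 0.364, 173 and 3.49 CPM in KO replicates 1 to 3, against 0.354, 2.70 and 6.86 CPM in HET replicates 1 to 3. KO replicate 2 was 25.2-fold over the highest other library, and the other KO libraries lay within the range of HET. KO averaged 58.9 ± 98.6 CPM and HET 3.31 ± 3.30 CPM (SD, n = 3 each), a log2 fold change of 4.16 ± 2.17 (SE; edgeR adjusted p = 0.596). That library alone gave the direction, since the log2 fold change was -0.80 without it. In other adenosine genes, Slc29a1, a nucleoside transporter, stood at 12.9, 175 and 45.2 CPM in KO and 87.5, 20.6 and 6.04 CPM in HET, and was likewise highest in KO replicate 2. Entpd1, the enzyme CD39 that makes the AMP on which CD73 acts, stood at 3.87, 0.0517 and 4.08 CPM in KO and 0.319, 3.84 and 3.88 CPM in HET, with KO replicate 2 lowest. Entpd5 stood at 14.3, 9.12 and 24.3 CPM in KO and 40.8, 46.5 and 40.0 CPM in HET, so that every KO library lay under every HET library (log2 fold change -1.42 ± 0.38, SE; adjusted p of 0.579 in edgeR's test). Of 13 tested genes of this list, 0 passed the adjusted threshold in edgeR, and at an unadjusted p under 0.05 there were 1 higher, the transporter gene Slc29a2 (2.57, 10.4 and 2.46 CPM in KO and 1.06, 0.910 and 0.981 CPM in HET), and 1 lower, Entpd5, with a median log2 fold change of -0.01. Of all tested genes 4.3% were higher and 4.29% lower at that p, and in 7.42% every KO library lay under every HET library.

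Cav1, caveolin 1, which builds the coat of caveolae, was the 1 marker whose KO and HET libraries did not overlap. It stood at 328, 367 and 131 CPM in KO replicates 1 to 3, against 379, 711 and 598 CPM in HET replicates 1 to 3. Such separation was found in 15.5% of tested genes (8.1% higher and 7.42% lower in KO), so 1 of 10 markers lies near the background. It also depended on scaling, for with library size alone KO replicate 2 stood at 405 CPM and HET replicate 1 at 354 CPM, and in RPKM they stood at 9.30 and 8.23. KO averaged 275 ± 127 CPM and HET 563 ± 169 CPM (SD, n = 3 each), a log2 fold change of -1.03 ± 0.46 (SE; edgeR adjusted p = 0.589). The unadjusted p of Cav1 was 0.0621 in edgeR, 0.0429 in DESeq2 and 0.050 in limma-voom.

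The cavin genes, which encode the outer coat of caveolae, had their lowest library elsewhere than Cav1. Ptrf (cavin 1), the coat protein that works with caveolin 1, stood at 901, 48.1 and 1098 CPM in KO replicates 1 to 3, against 1225, 1511 and 1881 CPM in HET replicates 1 to 3. Sdpr (cavin 2) stood at 580.3, 39.1 and 693 CPM in KO and 199, 385 and 717 CPM in HET. Prkcdbp (cavin 3) stood at 95.3, 7.46 and 90.8 CPM in KO and 136, 154 and 119 CPM in HET. Murc (cavin 4) was scarce, at 0.227, 0.129 and 3.33 CPM in KO and 4.07, 1.28 and 0.941 CPM in HET. All of these cavin genes were thus lowest in KO replicate 2, where Cav1 was at 367 CPM and Cav2, its partner in the coat, was highest, at 87.2 CPM against 23.9 to 47.7 CPM elsewhere. Ehd2, also in this list, stood at 241, 270 and 508 CPM in KO and 697, 646 and 355 CPM in HET. In KO replicate 3 Cav1 was at its lowest, Sdpr was within the range of HET, and Ptrf and Prkcdbp stood at 1098 and 90.8 CPM. In Ptrf and Prkcdbp, 2 of 9 tested genes of the list, every KO library lay under every HET library, where 7.42% of all tested genes did so. Of 9 tested genes of the list, 0 passed the adjusted threshold in edgeR and 0 had an unadjusted p under 0.05, and the median log2 fold change was -0.74.

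**Figure D3:**
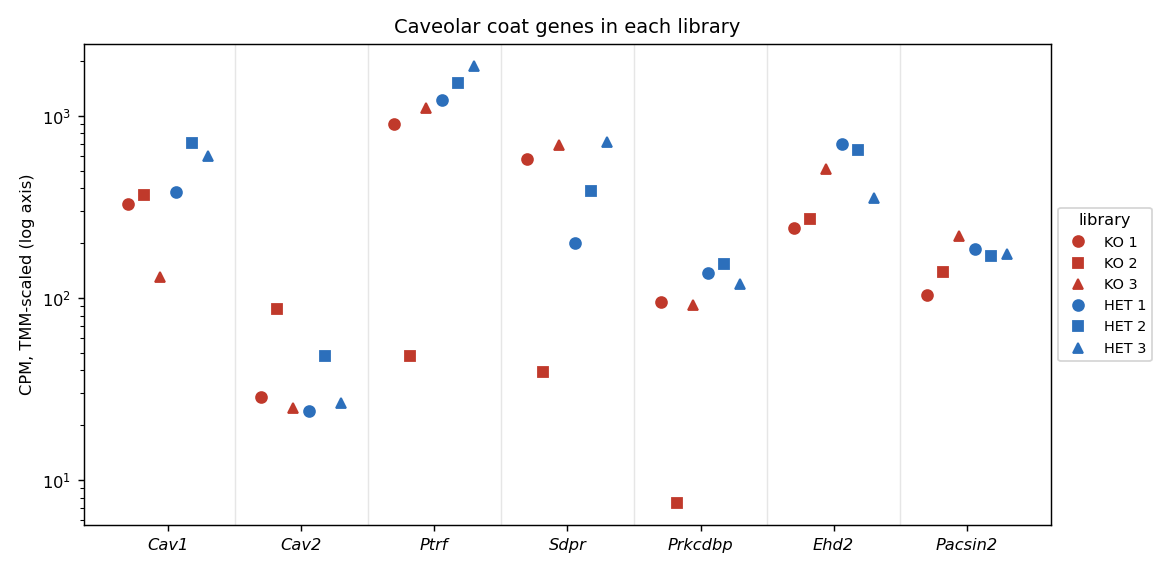
TMM-scaled CPM of 7 caveolar genes on a log axis, with a point for each library (KO in red, HET in blue, the shape giving the replicate). KO replicate 2 has the lowest Ptrf (48.1 CPM), Sdpr (39.1 CPM) and Prkcdbp (7.46 CPM) and the highest Cav2 (87.2 CPM), while the lowest Cav1 (131 CPM) is in KO replicate 3.

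Spp1, osteopontin, a secreted protein that binds integrins and CD44 and is also made by macrophages, was present throughout but uneven. It stood at 46.9, 1288 and 497 CPM in KO replicates 1 to 3, against 91.8, 871 and 319 CPM in HET replicates 1 to 3. Low and high libraries occurred in both groups, which overlapped. KO averaged 610.5 ± 628 CPM and HET 427 ± 401 CPM (SD, n = 3 each), a log2 fold change of 0.52 ± 1.19 (SE; edgeR adjusted p = 0.90). Without KO replicate 2 the log2 fold change was -0.68. Leukocyte markers were unevenly spread as well, and they summed to 28.7, 17.3 and 1169 CPM in KO and to 31.6, 1557 and 50.6 CPM in HET. Of the 13 leukocyte markers, 11 were over the floor in KO replicate 3 and in HET replicate 2, and 4 to 6 in the other libraries. In KO replicate 2, which had the highest Spp1, 6 of the 13 markers were over the floor, with the sum of 17.3 CPM given above. Lyz2 stood at 4.44 CPM there, and Ptprc and Adgre1 were at 0. The part of leukocytes in the Spp1 levels was not tested.

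Of the 10 tested receptor and family genes of osteopontin, 1 had KO and HET libraries that did not overlap, where this was found in 15.5% of all tested genes. Cd44 stood at 727, 548 and 1079 CPM in KO replicates 1 to 3, against 220.5, 366 and 520.1 CPM in HET replicates 1 to 3. Every KO library lay above every HET library, with a log2 fold change of 1.09 ± 0.42 (SE) and an adjusted p of 0.579 in edgeR's test. Itga4, an integrin chain, reached 80.4 CPM in KO replicate 1 and stood between 0.673 and 3.73 CPM elsewhere, while Itgav ran from 150.1 to 293 CPM over the 6 libraries. Of 10 tested genes of this list, 0 passed the adjusted threshold in edgeR and 1, Cd44, had an unadjusted p under 0.05, and the median log2 fold change was 0.07. Such an unadjusted p was found in 8.59% of all tested genes. The bone proteins of the same family, Ibsp, Mepe and Dspp, were at 0 in all libraries.

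Eng, endoglin, a co-receptor for TGF-beta family ligands that is strongest in endothelium, was high in libraries of both labels. It stood at 2.64, 2.69 and 93.1 CPM in KO replicates 1 to 3, against 138, 169.6 and 13.8 CPM in HET replicates 1 to 3. KO replicate 3 and HET replicates 1 and 2 were high, and HET replicate 3 lay between these and the remaining KO libraries. KO averaged 32.8 ± 52.2 CPM and HET 107 ± 82.4 CPM (SD, n = 3 each), a log2 fold change of -1.71 ± 1.57 (SE; edgeR adjusted p = 0.732). Without KO replicate 3 the log2 fold change was -5.33 (edgeR adjusted p = 0.393), and without any other single library it lay between -2.23 and -1.19. Most endothelial markers were at or near 0, with Pecam1 at 0.114, 0.0258 and 0.159 CPM in KO and 0.319, 0.853 and 0.157 CPM in HET, and Cldn5 at 0 in every library. Their sum was 13.6, 1.60 and 4.68 CPM in KO and 2.90, 9.64 and 5.22 CPM in HET, and most of the 13.6 CPM in KO replicate 1 was Kdr at 12.8 CPM, in the library where Eng was lowest. Of the 11 endothelial markers, 10 were over the floor in HET replicate 2, where Eng was highest, and 4 to 6 in the other libraries. Tek, an angiopoietin receptor of endothelium, stood at 0.0227, 0.0258 and 1.19 CPM in KO and 2.09, 2.08 and 1.45 CPM in HET, low in both libraries with the lowest Eng. The part of endothelial cells in the Eng levels was not tested.

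Genes of the receptor complex of endoglin differed in which libraries were high. Acvrl1, its type I receptor ALK1, stood at 22.1, 1.16 and 78.5 CPM in KO replicates 1 to 3, against 28.1, 82.5 and 52.0 CPM in HET replicates 1 to 3. Acvr2a, a type II receptor, stood at 9.92, 18.3 and 16.7 CPM in KO and 72.4, 54.7 and 17.2 CPM in HET, with the highest KO library above the lowest HET library. The target genes Id1 and Id3 ran from 47.9 to 169 CPM and from 153 to 318 CPM over the 6 libraries, overlapping between labels. Of 15 tested genes, 0 passed the adjusted threshold in edgeR and 1, Acvr2a, was lower at an unadjusted p under 0.05, and the median log2 fold change was -0.23. The share of all tested genes lower at that p was 4.29%.

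Read library by library, KO replicate 2 combined extremes in both directions. It was the lowest of 6 in 4 of the 10 markers (Thy1, Pdpn, S100a4 and Des) and the highest in 2 (Nt5e and Spp1). Over all tested genes it was lowest in 23.5% and highest in 26.3%. Vim and Cav1 stood within the range of the other libraries there. Of the 20 further fibroblast and CAF genes, 14 were lowest in the same library and 0 highest. Among those not lowest there, Fn1 (fibronectin) stood at 1263, 4176 and 2104 CPM in KO and 4672, 4384 and 2207 CPM in HET, and Postn (periostin) at 13.3, 439.8 and 83.4 CPM in KO and 1307, 405.8 and 53.8 CPM in HET. Col1a1, a collagen gene that was lowest there, stood at 411, 2.56 and 274 CPM in KO replicates 1 to 3, against 4948, 1218 and 525 CPM in HET replicates 1 to 3. Dcn, decorin, stood at 369.8, 0.775 and 136 CPM in KO and 55.0, 59.7 and 356 CPM in HET. Pdgfra and Pdgfrb, growth factor receptors of fibroblasts, stood at 124 and 138 CPM in KO replicate 2, which was the lowest library for both. Epithelial markers summed to 28.5, 90.2 and 28.8 CPM in KO and to 65.8, 18.0 and 19.0 CPM in HET. Of the 11 epithelial markers, 9 were highest in KO replicate 2 and 1 was lowest there, beside the shares of 26.3% and 23.5% of all tested genes. Of 7 tested members 3 were higher, and none lower, at an unadjusted edgeR p under 0.05. At that p 4.3% of all tested genes were higher and 4.29% lower. Among the 3, Krt8 and Krt18 were highest in KO replicate 2 and lowest in KO replicate 1, at 0.227 CPM each. All 11 members were over the floor in KO replicates 2 and 3, and Krt19 alone gave 64.1 CPM in HET replicate 1. The part that other cell types had in the marker levels was not tested.

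**Figure D4:**
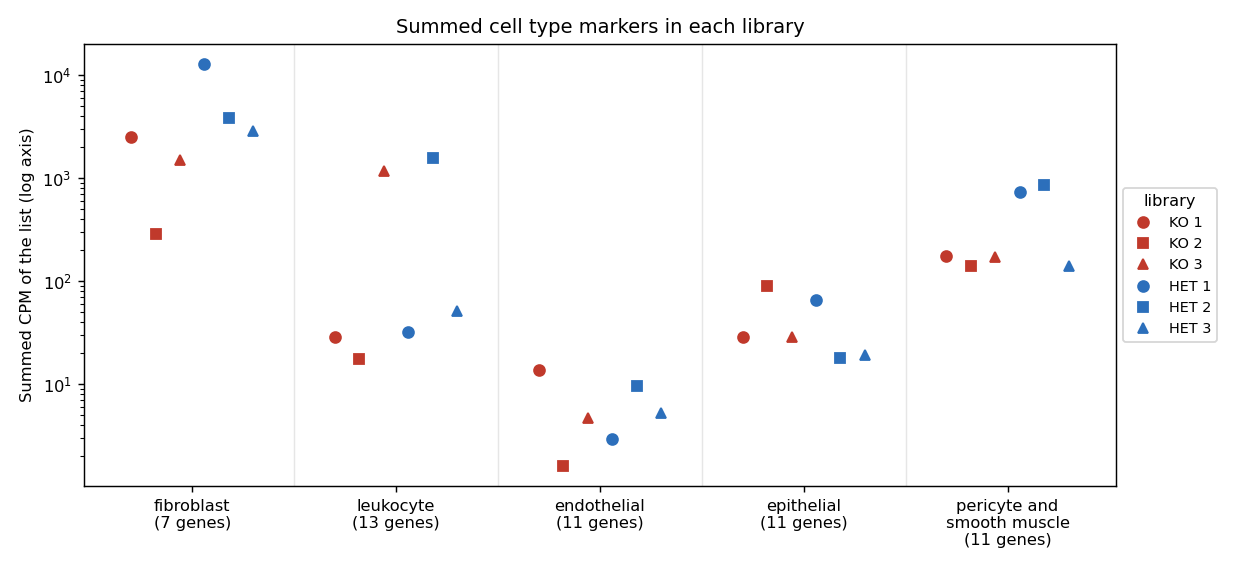
Summed TMM-scaled CPM of 5 lists of cell type markers on a log axis, with a point for each library (KO in red, HET in blue, the shape giving the replicate). The fibroblast sum is lowest in KO replicate 2 (288 CPM), and the leukocyte sum is high in KO replicate 3 (1169 CPM) and HET replicate 2 (1557 CPM) and 17.3 to 50.6 CPM elsewhere.

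Pericyte and smooth muscle markers, which bear on Des and Eng, summed to 174, 140.1 and 170.2 CPM in KO and to 722, 850.1 and 138 CPM in HET, with Higd1b at 0 in all libraries. Among them Ndufa4l2 stood at 0.159, 0.0258 and 0.833 CPM in KO and 20.2, 44.2 and 1.29 CPM in HET, which missed edgeR's threshold (adjusted p = 0.579) and passed that of DESeq2 (log2 fold change -6.04, adjusted p = 7.5e-04). Skeletal muscle markers were near 0 except Acta1, which stood at 39.6, 8.78 and 169.7 CPM in KO and 186, 204 and 109 CPM in HET, and Myog reached 3.25 CPM in KO replicate 3. Fibroblast genes in which every KO library lay under every HET library included Sparc at 1183, 1126 and 1989 CPM in KO and 9726, 4928 and 2723 CPM in HET, and Col3a1 at 9.44, 21.8 and 91.3 CPM in KO and 1873, 629.8 and 95.4 CPM in HET, neither past edgeR's threshold (adjusted p = 0.579). Of the 20 further fibroblast and CAF genes, 0 passed the adjusted threshold in edgeR, 5 were lower and 0 higher at an unadjusted p under 0.05, and the median log2 fold change was -1.47. At that p 4.29% of all tested genes were lower and 4.3% higher. In 7 of the 20 every KO library lay under every HET library, where 7.42% of all tested genes did so.

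The order of the markers among themselves can be read only per length. The deposited RPKM were found to divide by the whole gene from start to end, introns included. In 9402 genes with exons covering under 50% of the gene, the length implied by count and RPKM matched that span to within 5% in 94.7% of genes, apart from 1 constant, and the summed exons in 5.12%. A level so scaled is lower the longer the introns of a gene are, so levels were also set per kilobase of annotated exons. By RPKM the order by mean log2 level was S100a4, Vim, Spp1, Thy1, Cav1, Pdpn, Eng, Nt5e, Des and Fap. Per exonic kilobase it was S100a4, Vim, Spp1, Cav1, Pdpn, Thy1, Eng, Nt5e, Des and Fap. The ends of the order were the same on both scales, and Thy1, a short gene, moved down.

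**Figure D5:**
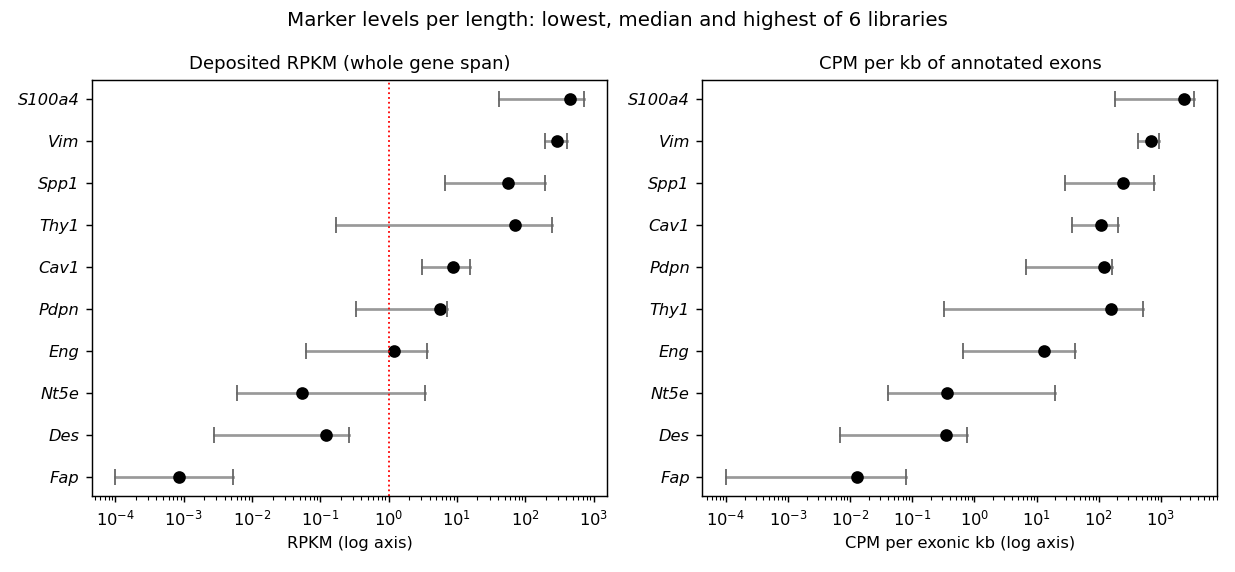
Lowest, median (point) and highest level of each marker over the 6 libraries, in deposited RPKM (left, with a dotted line at 1 RPKM) and in CPM per kilobase of annotated exons (right), both on log axes; the value of 0 for Fap is drawn at the left edge. S100a4 has a median of 458 RPKM and Fap one of 0.000841 RPKM, and Thy1 spans the widest range.

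No neighbours in this order differed past the threshold after adjustment, but this test had little room to show a difference. With 6 libraries no pair could pass on its own after adjustment over 9 pairs. The order was also set from the same levels that were then compared. The result therefore does not show that neighbours were alike. On the RPKM scale the mean difference of log2(RPKM + 0.01) within a library was 0.05 ± 1.71 (SD, n = 6) between S100a4 and Vim, with S100a4 above Vim in 4 of 6 libraries and an exact two-sided sign-flip permutation p of 0.938. Vim lay above Spp1, Pdpn above Eng, and Des above Fap in 6 of 6 libraries, by a mean difference on that scale of 2.82 ± 1.76, 2.61 ± 2.20 and 2.93 ± 1.83 (SD, n = 6). For each of these 3 pairs the exact permutation p was 0.0312, the smallest that 6 libraries allow, and 0.0938 after Benjamini-Hochberg adjustment over 9 pairs. Per exonic kilobase Vim lay above Spp1 in 5 and Des above Fap in 4 of 6 libraries, and no pair of neighbours had an adjusted exact p under 0.281. On that scale 5 of 10 markers, Pdpn among them, were at 1 CPM per exonic kilobase or more in every library, where 66.1% of genes with an exon length were.

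Promoter sequence was set beside the levels for 4 markers that show the patterns of KO replicate 2, namely S100a4 and Pdpn, which were low there, Nt5e, which was high, and Vim, which was within its range. Of the 10 markers, 8 matched the RefSeq promoter table (GRCm38.p6), whose windows of 300 bases span a RefSeq transcript start. The Vim and Nt5e windows lie inside the GENCODE genes, downstream of their annotated starts. The windows were chr3:90603520-90603819 (plus strand) for S100a4, chr4:143299515-143299814 (minus strand) for Pdpn, chr9:88327359-88327658 (plus strand) for Nt5e and chr2:13574061-13574360 (plus strand) for Vim. They are given 5′ to 3′, and capitals mark matches on either strand to 4 motifs, each match counted on its own where matches overlap. These were the TATA box, spelled TATAAA, the CCAAT box by those letters, the GC box that Sp1 binds, spelled GGGCGG, and the AP-1 motif, spelled TGANTCA.
S100a4: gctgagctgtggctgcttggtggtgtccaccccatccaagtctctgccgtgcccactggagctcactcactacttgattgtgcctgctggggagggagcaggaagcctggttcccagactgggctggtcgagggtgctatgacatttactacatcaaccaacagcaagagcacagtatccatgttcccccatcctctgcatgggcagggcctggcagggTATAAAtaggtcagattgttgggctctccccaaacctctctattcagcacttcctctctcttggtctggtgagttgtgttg
Pdpn: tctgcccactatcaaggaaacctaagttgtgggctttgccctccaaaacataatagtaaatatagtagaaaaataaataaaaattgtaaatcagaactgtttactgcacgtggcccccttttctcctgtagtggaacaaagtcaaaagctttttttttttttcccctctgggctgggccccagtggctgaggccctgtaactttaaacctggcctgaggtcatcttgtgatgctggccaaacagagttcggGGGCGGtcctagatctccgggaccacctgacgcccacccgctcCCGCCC
Nt5e: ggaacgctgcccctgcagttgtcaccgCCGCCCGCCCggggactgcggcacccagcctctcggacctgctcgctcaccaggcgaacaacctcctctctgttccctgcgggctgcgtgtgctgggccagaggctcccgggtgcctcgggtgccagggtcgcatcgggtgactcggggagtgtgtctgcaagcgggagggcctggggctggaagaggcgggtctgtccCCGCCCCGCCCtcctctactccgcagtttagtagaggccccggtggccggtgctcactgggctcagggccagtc
Vim: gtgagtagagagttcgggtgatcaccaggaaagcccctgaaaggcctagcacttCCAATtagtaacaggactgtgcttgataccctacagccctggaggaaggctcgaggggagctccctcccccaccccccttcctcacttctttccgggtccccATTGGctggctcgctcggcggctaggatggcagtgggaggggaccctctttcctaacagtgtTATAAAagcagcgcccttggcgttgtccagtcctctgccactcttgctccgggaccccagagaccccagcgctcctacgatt
The S100a4 window held 1 TATA box match and 2 CpG pairs, and the Vim window 1 TATA box match, 2 CCAAT box matches and 11 CpG pairs. The Pdpn window held 2 GC box matches and 7 CpG pairs, and the Nt5e window 4 GC box matches, of which some overlap, and 23 CpG pairs. None of the 4 windows held the AP-1 motif. Of 32851 promoter windows of this length, 13.6% held the TATA box, 37.4% the CCAAT box, 35.7% the GC box and 7.81% the AP-1 motif, and the median was 7 CpG pairs. Of the 4 markers lowest in KO replicate 2, Thy1 has no window here, and the Des window held 2 GC box matches, as that of Pdpn did, while that of S100a4 held none. Spp1, which like Nt5e was highest in KO replicate 2, has 2 windows with 3 CpG pairs each. Its first window held 1 TATA box match, 1 CCAAT box match and 0 GC box matches, and its second held 0 matches to any of the 4 motifs. These matches describe the letters in the windows.

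The markers lie at separate places in the genome (GRCm38, GENCODE M21), with Fap, Vim and Eng on chromosome 2 and Thy1 and Nt5e on chromosome 9. Vim runs from 13573927 to 13582826, Thy1 from 44043384 to 44048579, Cav1 on chromosome 6 from 17306335 to 17341452, and Fap from 62500943 to 62574075. S100a4 runs from 90603771 to 90606045 on chromosome 3, Pdpn from 143267431 to 143299564 on chromosome 4, Spp1 from 104435118 to 104441050 on chromosome 5, and Des from 75360329 to 75368579 on chromosome 1. Nt5e runs from 88327197 to 88372092 and Eng from 32646595 to 32682669. Eng overlaps Fpgs on the opposite strand, which stood between 16.1 and 28.8 CPM, above Eng in 3 libraries. Whether the counting used strand is not stated, and without strand the reads of Eng and Fpgs cannot be told apart where they overlap. Genes overlapping S100a4, Spp1, Des and Cav1 stood at 3.31 CPM or less in every library.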

How the data were processed

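Libraries were made from Trizol RNA with a stranded kit that removes ribosomal RNA, per the labels' protocols. Tools listed in the submitters' processing notes are Partek, cutadapt 1.2.1 and Bowtie2, with GRCm38 and mm10 as builds; neither annotation nor counting method is stated there. For each library the authors deposited estimated counts by gene, not scaled, and a table of RPKM. The deposited RPKM divide by the whole gene span. In 30 rows of each table values stood in the wrong column, and these were left out.

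Estimated counts were rounded, filtered with filterByExpr and scaled by TMM. KO was tested against HET, two-sided, in edgeR 4.0.16 under R 4.3.3 (glmQLFit and glmQLFTest), with Benjamini-Hochberg adjustment over 17584 genes and a threshold of 0.05. SE is the size of the log2 fold change over the square root of F. Exon lengths were unions from GENCODE M21. The fit was first tested on simulated counts. Alternatives were other scalings and filters, DESeq2 1.42.0 at its defaults, limma 3.58.1 (voom, and log2 RPKM plus 1 or 0.1), a block for the title number that recurs, and leaving libraries out. The rule named up to 4 genes of smallest unadjusted p in each companion list, and in cell type lists the highest 3 and those at 0; other genes of these lists were chosen after their values were seen. Members and lists were chosen with earlier results of these data known.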

Additional observations from a re-analysis of the deposited data

How the results depend on the processing

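Of the log2 fold changes of single markers under the alternatives, 147 kept their direction and 4 changed it (DESeq2 gave no p for Nt5e). These were Thy1 at 0.17 without KO replicate 3 and HET replicate 3 together, Vim at 0.031 without KO replicate 1, and Nt5e at -0.80 and Spp1 at -0.68 without KO replicate 2. Leaving out single libraries gave -0.53 to 0.031 for Vim, -0.80 to 5.26 for Nt5e and -0.68 to 1.57 for Spp1. No marker with a p passed an adjusted threshold under any alternative run; the smallest adjusted p was 0.117, for Eng without KO replicate 3 and HET replicate 3 together (log2 fold change -5.88). Over all genes DESeq2 called 201 genes, and edgeR and limma called 0 under every other alternative. Of the companion genes DESeq2 called 4, namely Ly6a, Ly6c1, Col3a1 and Sparc, and among cell type markers outside those lists Ndufa4l2. With a threshold of 10 RPKM the number of markers present in every library was 2 (10.6% of tested genes), and leaving out single libraries gave 4 to 6 (38.2% to 39.2%). The number of markers whose libraries did not overlap was 0 with library size alone and 0 in RPKM, and ran from 1 to 4 when single libraries were left out (2 without KO replicate 1, 4 without KO replicate 3 and 2 without HET replicate 3), while the share of all tested genes ran from 19.2% to 33.5%. Levels per exonic kilobase and the last of these counts were added after seeing the data. No paired analysis was possible because KO and HET share only 1 title number; a replicate block for that number called 0 markers and 0 genes. A filter of 10 CPM in 3 libraries gave no value for Nt5e and Des. The cause of these changes was not tested. Depth limits Fap and Des, which had under 100 estimated counts in every library, and Fap and the lowest Des value stay near the floor of 3 counts.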

Other observations

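The markers can also be described by the genes most like them across the 6 libraries. Among 9263 named genes with a mean of at least 10 CPM, the highest Pearson r of log2 CPM was 0.999 for Pdpn with Zfhx4, 0.998 for S100a4 with Arhgef25, 0.998 for Eng with Tmem37, 0.996 for Thy1 with Ptp4a3, 0.996 for Des with Kcnj15 and 0.986 for Vim with Zc3h14. These are the best of all genes compared over only 6 libraries, 1 of which stands apart, and 143 genes had an r over 0.95 with Pdpn. Among the markers themselves, Des and Eng had the highest r, 0.96 over 6 libraries and 0.96 without KO replicate 2. Thy1 with Pdpn had 0.92, but 0.47 without KO replicate 2, and Pdpn with S100a4 had 0.88, but -0.18 without it. These are descriptions with no test, over libraries that differ in depth and share 1 scaling.

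Of the fibroblast genes, Lum, lumican, was low in all libraries but 1, at 1.16, 0.0258 and 1.43 CPM in KO replicates 1 to 3, against 0.213, 0.654 and 15.1 CPM in HET replicates 1 to 3. Dcn and Pdgfra were both highest in HET replicate 3 and KO replicate 1, where Thy1 was also highest, with Pdgfra at 636, 124 and 143 CPM in KO and 184, 204 and 689 CPM in HET. Adipocyte markers summed to 91.1, 92.5 and 52.6 CPM in KO and to 497, 203 and 129 CPM in HET, nearly all of it Lpl, and Schwann cell markers summed to 1.71, 2.43 and 1.86 CPM in KO and 2.23, 3.87 and 4.39 CPM in HET.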
